A study of Danio rerio with 2 samples.

Results

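Laminins, integrins and the proteases that cut the extracellular matrix were described in whole wild-type and supt16h mutant zebrafish embryos. The gene supt16h encodes a subunit of the histone chaperone FACT. Genes were taken by symbol: the laminin chains, the integrin chains and their binding protein, fibronectin, nidogen, perlecan and agrin, the matrix metalloproteinases and their TIMP inhibitors, the ADAM and ADAMTS proteases, tenascin, thrombospondins and SPARC, and the fibrillins and fibulins. The symbols matched 103 of the 34728 loci in the deposited expression table, under 100 distinct names. Of these loci, 81 had a mean of at least 1 FPKM (fragments scaled to transcript length and library size, a level per length) and are called measured, against 20638 of all loci. A further 21 lay under that limit, none above 1.28 FPKM in either library, and thbs1b was left out because its estimate carried the status FAIL.

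The series held 2 libraries, 1 from wild-type siblings and 1 from embryos homozygous for the supt16h mutation, both of whole embryos grown at 28 °C and collected at 32 hours post fertilisation. The labels state neither how many embryos entered a library nor whether the sibling library held carriers of the mutation. The study used the RNA to map the mutation by linkage. With 1 library per genotype there was no replicate error and no test between genotypes, so each value below describes these libraries only. Summed FPKM came to 1029581 for siblings and 1095954 for mutants. From the steps between low values, sequencing was 1.53 times deeper for the mutants, as read from 4528 loci of which 7.64% lay on the common step. The absolute depth is unknown. The gene supt16h itself stood at 44.4 FPKM in siblings against 2.98 FPKM in mutants.

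Laminins are trimers of an alpha, a beta and a gamma chain that polymerise into the sheet of the basement membrane. Nidogen and perlecan link that sheet to the collagen network, and integrins, which are pairs of an alpha and a beta chain, hold cells to it. In the zebrafish embryo these genes are known for their work in the notochord sheath, in the myotendinous junctions at the somite borders, in the fin folds and in heart tube assembly. Metalloproteinases of the MMP, ADAM and ADAMTS families trim the matrix and shed surface proteins, and TIMP proteins inhibit many of them.

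Most genes of this group stood at similar levels in both libraries. On the scale of log2(FPKM + 1), mutant minus sibling, which understates differences of low genes, 61 of the 81 measured loci differed by under 0.5, which is 75.3% of them, against 58.9% of all measured loci. Among loci with a mean of at least 5 FPKM the shares were 33 of 43 (76.7%) and 57.6%. A single symbol found at no other locus stood at 73 of the 81 members and 16687 of all 20638 measured loci. Over all loci, the rest, with repeated or joined names, were at least 2-fold different more often. The share under 0.5 was not computed over all loci without them, so their part in the contrast is not known. The genes with a difference of at least 2-fold on that scale were fn1b, adam9, itga7 and adamts8a, higher in the mutant library, and sparcl1 and the shorter of the agrn entries, lower there. These 4 higher loci were 4.94% of the measured members, where 6.75% of all measured loci were at least 2-fold higher. The 2 lower loci were 2.47% of the members, where 8.36% of all measured loci were at least 2-fold lower. The median difference was 0.06 over the members and 0.0012 over all measured loci, and the members' median became -0.01 when the libraries were scaled to equal sums. Values lay above 0 at 46 members (56.8%, against 50.1% of all measured loci) and below 0 at 35.

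The authors' deposited table called 0 of the 103 loci different, where it called 0.469% of its 20044 tested loci. It lists 76 of the 103 as tested. An unadjusted p under 0.05 stood beside 4 of them in the authors' deposited table, or 5.26%, where 6.43% of all tested loci had one. These were sparcl1, adamts8a, itga7 and itga8, and the lowest adjusted value, q = 0.373 in the authors' deposited table, belonged to sparcl1. The standard error implied by the authors' change and its statistic had a median of 0.68 on the log2 scale over the tested members. At a typical member, a 2-fold difference lies within 2 such errors.

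**Figure D1:**
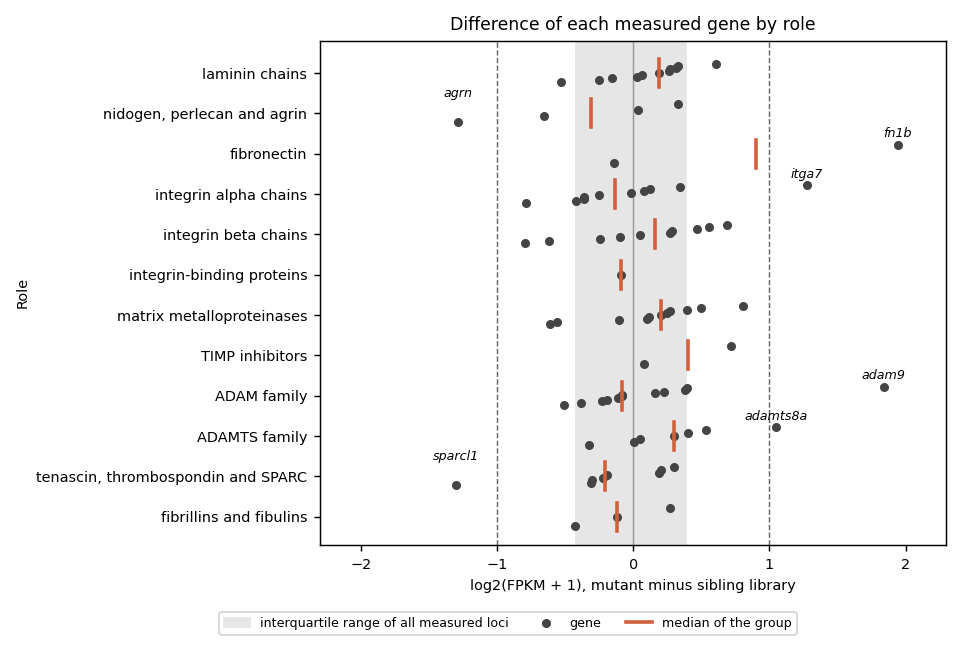
Difference of each measured gene in log2(FPKM + 1), mutant minus sibling library (horizontal axis), by role (vertical axis), with points for genes, orange lines for medians, a grey band for the interquartile range of all measured loci and dashed lines at 2-fold. Most points lie within or near the grey band, and the 6 named genes lie beyond the dashed lines.

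Laminin chains stood close to their sibling levels. Of 12 loci 11 were measured, 0 differed 2-fold, 8 lay above 0 and 3 below, and the median difference was 0.19. The most abundant was lamc1, the gamma chain of the common embryonic trimers, with 35.1 FPKM in siblings against 44.3 FPKM in mutants. The largest higher value was that of lamb2, a beta chain known in mammals from synaptic basement membranes, at 15.9 and 24.7 FPKM. Its neighbour lamb2l, which starts 3068 bases further on chromosome 23, stood at 14.3 and 14.9 FPKM. The 2 genes thus stood at nearly the same level in the sibling library and apart in the mutant library. The implied standard error for lamb2l was the largest of all members, at 3.60, so its level is poorly fixed.

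The alpha chains of the group were even between the libraries. The muscle laminin lama2 had 7.94 and 10.1 FPKM, lama4 of vessels and other tissues had 8.96 and 9.16 FPKM, and lama5 of fin fold epidermis had 7.21 and 8.35 FPKM. A short lama3 locus lay under the limit. So did a separate entry written in capitals, LAMA2, on chromosome 20 like lama2, at 0.441 and 0.144 FPKM. The lama2 locus spans 13072 bases and the LAMA2 entry 416826, so the lama2 value may cover only a part of the gene. The laminin chain with the lowest difference was lamc3, a gamma chain, at 5.03 and 3.18 FPKM, a difference of -0.53. Beta chains lamb1b (2.14 and 1.82 FPKM) and lamb4 (4.03 and 5.05 FPKM) were scarce in both libraries. The gene lamb1a, the beta chain of the early embryonic trimer, has 2 entries at the same coordinates, with 20.5 and 17 FPKM in one and 5.31 and 6.59 FPKM in the other. The division of reads between those entries is uncertain, and their differences had opposite signs.

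Summed by chain, the beta chains were the most abundant laminin class. The 3 measured alpha loci summed to 24.1 FPKM in siblings against 27.6 FPKM in mutants. The 6 beta loci summed to 62.1 and 70.1 FPKM, and the 2 gamma loci to 40.1 and 47.5 FPKM. The mutant sums were 1.15, 1.13 and 1.18 times the sibling sums, so the chain classes kept about the same proportions. The alpha sum lacks LAMA1, which is written in capitals in the table and so falls outside the choice of symbols. That gene stood at 15.8 and 11.7 FPKM, and with it the alpha sum was 39.9 and 39.4 FPKM.

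**Figure D2:**
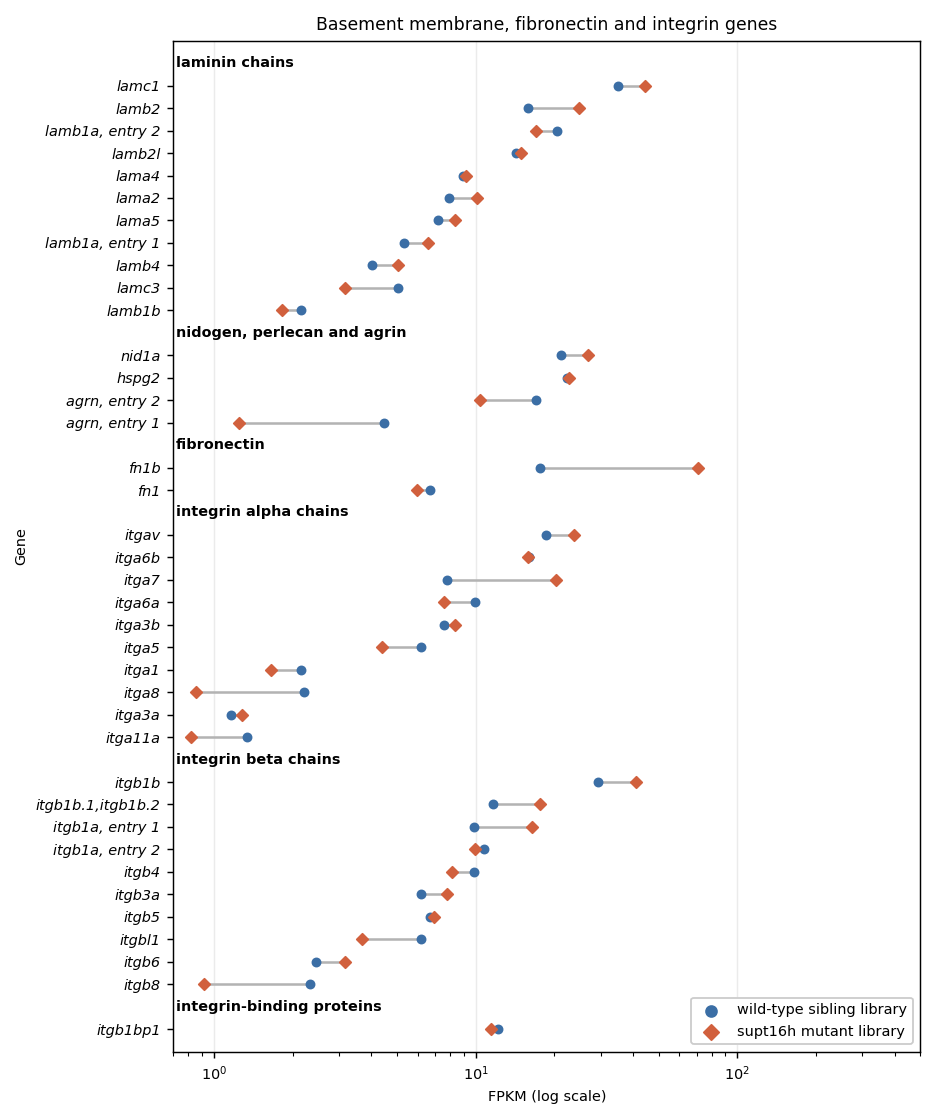
FPKM (horizontal log axis) of each measured laminin, nidogen, perlecan, agrin, fibronectin and integrin locus (vertical axis), with blue circles for the sibling library and orange diamonds for the mutant library, 1 library each. The markers are close together for most genes and far apart for fn1b, the first agrn entry, itga7, itga8 and itgb8. A name with entry 1 or 2 stands at 2 loci of the table.

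The linkers of the basement membrane differed among themselves. Perlecan, hspg2, the large proteoglycan of the basement membrane and the myotendinous junction, stood at 22.3 and 22.8 FPKM. Nidogen 1a, nid1a, stood at 21.2 and 26.9 FPKM, and nid2b lay under the limit. Agrin, which gathers acetylcholine receptors at the neuromuscular junction and also acts on axon growth, stood lower at both of its loci on chromosome 23. The long locus (24028507 to 24201575 of the Zv9 build) had 17 FPKM in siblings against 10.4 FPKM in mutants. The short locus of 2260 bases (23779772 to 23782031) had 4.48 and 1.25 FPKM, a difference of -1.29. The long locus alone was 1.63-fold lower in the mutant library. Summed, the 2 loci were at 21.4 and 11.6 FPKM, 1.84-fold lower, but a sum of levels per length over unlike loci is not a gene level. The authors' deposited table calls neither, and the standard error it implies is 0.63 for the long locus and 1.21 for the short one.

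In the neural marker list, which was chosen with earlier results of these data known, some genes also stood lower. Of the 11 measured genes of the list 9 lay below 0 and 4 (36.4%, against 8.36% of all measured loci) were at least 2-fold lower. Its median difference was -0.29. Its summed level was 1485 FPKM in siblings against 682 FPKM in mutants, with no marker at 0. That gap lay mostly in fabp7a, elavl3, sox3 and gfap, since the other 7 markers summed to 282 and 239 FPKM. Among those 7, sox2 stood lower (55.1 and 29.4 FPKM), and elavl4, stmn2b and snap25b lay slightly below 0. Levels of gap43 (27.2 and 28.0 FPKM), stmn2a (43.1 and 45.0 FPKM) and snap25a (51.8 and 49.2 FPKM) were nearly even. The part of neural tissue in the agrn difference was not tested. In RNA of whole embryos, fewer cells of a type and less RNA per cell cannot be told apart.

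The fibronectin gene fn1b was among the genes with the widest gaps, and its paralog was level. Fibronectin is the matrix protein through which somite borders form and heart precursors move to the midline. Levels of fn1b were 17.7 FPKM in siblings against 70.8 FPKM in mutants, 4.01-fold higher in mutants and a difference of 1.94. Its paralog, listed as fn1 and named fn1a in RefSeq, stood at 6.70 and 5.97 FPKM. The paralogs lay on opposite sides of 0, and their sum was 24.4 FPKM in siblings against 76.8 FPKM in mutants. The estimate for fn1b is weak. The authors' deposited table gives it p = 0.483, from a log2 change of 2.0 with an implied standard error of 2.86, the second largest among the members. Its locus on chromosome 1 (4326543 to 4432219, Zv9) is listed with the same coordinates as atic and mnx2b. Those genes stood at 32.9 and 32.3 FPKM (atic) and 6.01 and 2.82 FPKM (mnx2b), and the fn1b value may include their reads.

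Integrin alpha chains were split. Of 16 loci 10 were measured, 4 above 0 and 6 below, with a median of -0.13 and 1 locus at least 2-fold higher. That locus was itga7, the laminin receptor chain of skeletal and heart muscle, which anchors fibres at their ends. It stood at 7.80 FPKM in siblings against 20.3 FPKM in mutants, 2.61-fold higher, at chromosome 11 from 141147 to 148254 (Zv9). The locus spans 7108 bases, where the next shortest measured alpha locus, itga6b, spans 45543. Whether it holds the whole gene was not tested. The authors' deposited table lists for itga7 a log2 change of 1.38 with an implied standard error of 0.65, p = 0.0324 and q = 0.658, and does not call it. With 5 FPKM added in place of 1, its difference was 0.98, just under 2-fold. The 12 skeletal muscle markers all lay above 0, where 50.1% of all measured loci did. Of the markers 1, ckma, was at least 2-fold higher (8.33%, against 6.75% of all measured loci). Their summed level was 24324 FPKM in siblings against 36453 FPKM in mutants, 1.5 times as high, with none at 0. The part of muscle content in the itga7 difference was not tested.

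The other laminin-binding alpha chains did not share the itga7 pattern. The chain of epidermal and general basement membrane adhesion, itga6, stood at 9.98 and 7.55 FPKM (itga6a) and at 16 and 15.8 FPKM (itga6b). Levels of itga3b, needed for fin fold attachment, were 7.59 and 8.35 FPKM, and those of itga3a were 1.16 and 1.28 FPKM. The receptor chains for fibronectin and related ligands were itgav, the most abundant alpha chain in both libraries (18.6 and 23.8 FPKM), and itga5, the main fibronectin receptor of somite borders (6.18 and 4.38 FPKM). So fn1b stood higher and itga5 lower in the mutant library, and neither gene was called. The lowest difference belonged to itga8, a chain known in mammals from kidney and smooth muscle, at 2.21 and 0.858 FPKM, with p = 0.0331 and q = 0.662 in the authors' deposited table. The collagen receptor chains were low, itga1 at 2.15 and 1.66 FPKM and itga11a at 1.33 and 0.821 FPKM. Under the limit lay itga9, itga10 and itga6l, while itga2, itga2b and itga11b were listed at 0 in both libraries. An entry in capitals, ITGA2 (2 of 2), also on chromosome 10, stood at 4.77 and 4.73 FPKM, so itga2 at 0 does not show that chain absent.

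Integrin beta chains were led by the beta 1 genes, which pair with most of the alpha chains above. The gene itgb1b stood at 29.3 and 41.0 FPKM, and the locus of its copies itgb1b.1 and itgb1b.2, which the table does not separate, stood at 11.6 and 17.6 FPKM. The gene itgb1a has 2 entries at identical coordinates, with 9.85 and 16.5 FPKM in one and 10.7 and 9.99 FPKM in the other, so its reads may be divided arbitrarily. Summed over these 4 loci, beta 1 stood at 61.5 FPKM in siblings against 85.1 FPKM in mutants, 1.38 times as high. The 10 measured alpha loci summed to 73.0 and 84.9 FPKM, a gap no larger than that of itga7 alone (7.80 and 20.3 FPKM). Of those 10 loci, 6 lay below 0. With the entries in capitals, 13 alpha loci summed to 80.0 and 92.6 FPKM.

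The remaining beta chains lay on both sides of 0. The hemidesmosome chain itgb4, which attaches epidermis to its basement membrane, stood at 9.83 and 8.15 FPKM. The partners of itgav were itgb3a (6.20 and 7.80 FPKM), itgb5 (6.68 and 6.94 FPKM), itgb6 (2.47 and 3.18 FPKM) and itgb8 (2.34 and 0.92 FPKM). Only itgb8, which activates latent TGF-beta in mammals, stood well below its sibling level, by a difference of -0.80. The related gene itgbl1, which encodes a secreted protein with integrin-like repeats and no receptor chain, stood at 6.21 and 3.68 FPKM. The cytoplasmic binding protein itgb1bp1 was level at 12.2 and 11.4 FPKM, and itgb3b lay under the limit. Over the 10 measured loci of the beta group the median was 0.16, with 6 above 0 and 0 at least 2-fold different.

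**Figure D3:**
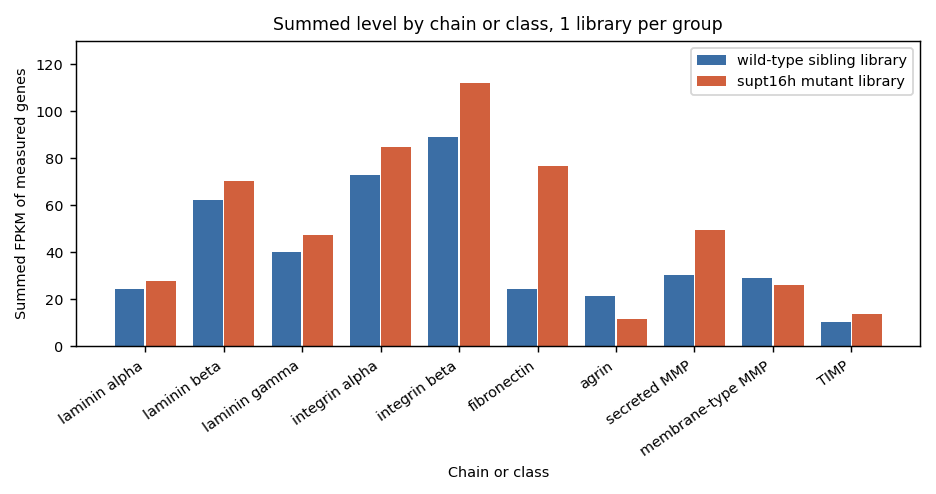
Summed FPKM (vertical axis, from 0) of the measured genes of each chain or class (horizontal axis), with blue bars for the sibling library and orange bars for the mutant library. The laminin and integrin pairs of bars are close, fibronectin goes from 24.4 to 76.8 FPKM and agrin, with its short and long loci added, from 21.4 to 11.6 FPKM. The bars have no error because each group has 1 library.

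Matrix metalloproteinases had 11 of 15 loci measured, 8 above 0 and 3 below, with 0 at least 2-fold different and a median of 0.20. The gelatinase mmp2 was the most abundant, at 21.3 FPKM in siblings against 37.9 FPKM in mutants, a difference of 0.80. Its membrane-bound activators lay on opposite sides of 0. Of these, mmp14a stood at 9.03 and 10.9 FPKM, and mmp14b stood at 13.3 and 8.34 FPKM. Of these genes mmp14b was the higher in siblings and mmp14a in mutants. The authors' deposited table calls neither, with implied standard errors of 0.60 for mmp14a and 0.61 for mmp14b.

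The inducible proteases of inflammation and wound repair were scarce. The gelatinase mmp9 stood at 1.98 and 2.59 FPKM and the collagenase mmp13a at 0.856 and 1.62 FPKM. The neighbour of mmp13a on chromosome 10, mmp30, stood at 4.40 and 5.22 FPKM. Leukocytes are a known source of these enzymes, and 5 of the 7 measured leukocyte and thrombocyte markers lay below 0. At least 2-fold lower were 2 of the 7 (28.6%, against 8.36% of all measured loci). The median of that list was -0.37. Of 10 symbols found for the list, any that is a member of this group was left out, which left 9 loci. The summed level of the list was 102 FPKM in siblings against 43.6 FPKM in mutants, with none of the 9 loci at 0. Most of that gap lay in lyz (63.3 and 22.2 FPKM) and npsn (20.6 and 4.89 FPKM), and the other 5 markers summed to 17.6 and 16.5 FPKM. The part of leukocytes in the mmp9 and mmp13a values was not tested.

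The other family members were low in both libraries. They were mmp23bb (3.98 and 3.64 FPKM), mmp17b (3.24 and 3.54 FPKM), mmp11b (1.94 and 2.19 FPKM), mmp24 (1.14 and 1.81 FPKM) and mmp16a (2.47 and 1.35 FPKM). The mmp16a locus shares its coordinates with a second entry in capitals, MMP16 (2 of 2), which stood at 2.8 and 1.25 FPKM. Summed, the 5 secreted enzymes mmp2, mmp9, mmp11b, mmp13a and mmp30 were at 30.5 and 49.5 FPKM, and the 5 measured membrane-type members at 29.1 and 26.0 FPKM. With entries in capitals, such as MMP15 and MMP25, 9 membrane-type loci summed to 39.1 and 35.1 FPKM. The inhibitor timp2a was level at 6.79 and 7.22 FPKM, and timp2b stood at 3.47 and 6.37 FPKM. Sums of secreted enzymes and of inhibitors were 1.63 and 1.32 times their sibling values. Most of the gap between the enzyme sums lay in mmp2 (21.3 and 37.9 FPKM), and most of that between the inhibitor sums in timp2b. The authors' deposited table calls neither gene.

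ADAM proteases were measured at all 12 of their loci, with 5 above 0, 7 below and a median of -0.08. Of the main sheddases of Notch, cadherins and growth factors, adam10a was at 28.3 and 26.6 FPKM and adam17a at 9.64 and 11.4 FPKM. Their relative adam10b, at 18.9 and 13 FPKM, had the lowest difference of the family, -0.51. The adam10b locus shares its coordinates with 6 other measured loci, so its value may include reads of those genes. The one gene of the family past 2-fold was adam9, a broadly expressed sheddase, at 3.62 FPKM in siblings against 15.5 FPKM in mutants. That is 4.29-fold higher, the largest ratio among the measured members. The locus lies on chromosome 8 from 48004001 to 48093554 (Zv9). The authors' deposited table gives p = 0.190 for it, from a log2 change of 2.1 with an implied standard error of 1.60.

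The remaining ADAM genes differed little. They included adam19b (13.3 and 11.2 FPKM), known in mammals from heart development, and adam23a (7.29 and 6.25 FPKM), a neuronal member without protease activity. Others were adam28 (3.96 and 5.50 FPKM), adam8b (2.48 and 2.29 FPKM), adam11 (2.11 and 2.48 FPKM), adam15 (1.87 and 1.66 FPKM), adam17b (1.18 and 1.85 FPKM) and the locus shared by SPEF1 and adam8a (4.25 and 3.03 FPKM).

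ADAMTS proteases, which cut proteoglycans and procollagens, were scarce. Of 10 loci 7 were measured, 6 above 0 and 1 below, and none exceeded 3.11 FPKM. The median was 0.30. The highest difference was that of adamts8a, at 0.990 FPKM in siblings against 3.11 FPKM in mutants, 3.14-fold higher. The authors' deposited table lists p = 0.0141 and q = 0.479 for it. With the libraries scaled to equal sums its difference was 0.98, under 2-fold, and with 5 FPKM added it was 0.44. The gene adamts15a, which starts 2038 bases further on chromosome 5, stood at 1.13 and 1.14 FPKM and did not share the difference. The aggrecanase adamts1 had 1.59 and 2.43 FPKM, adamts18 0.895 and 1.33 FPKM and adamts22 1.39 and 0.907 FPKM. The adamts22 locus shares its coordinates with 3 other measured loci, among them zgc:123105 at 38.2 and 27.8 FPKM, so its value may include their reads. The related genes without a protease domain were adamtsl2, a fibrillin-binding protein (0.885 and 1.73 FPKM), and adamtsl7 (2.21 and 2.32 FPKM). Under the limit lay adamts9, adamts10 and adamts13.

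**Figure D4:**
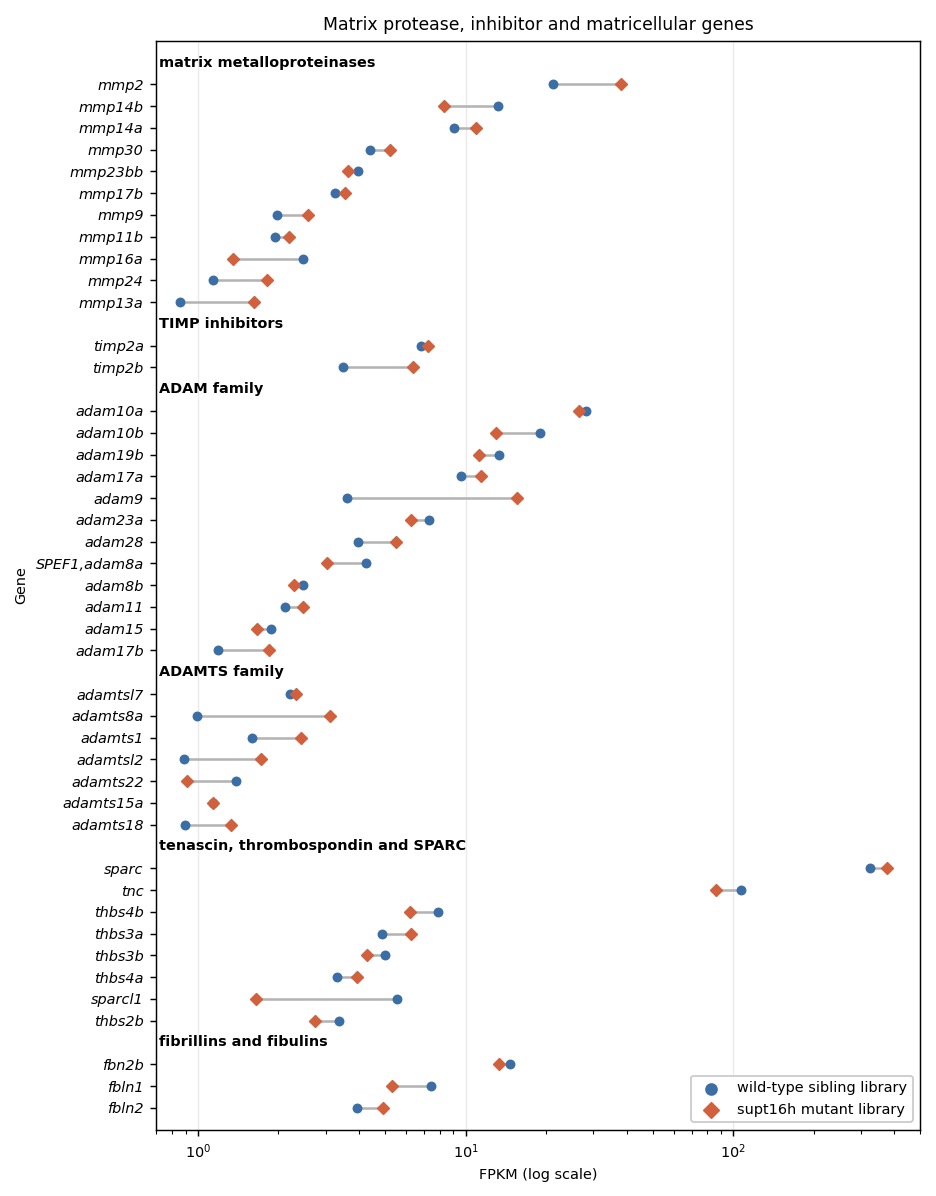
FPKM (horizontal log axis) of each measured protease, inhibitor, matricellular and microfibril locus (vertical axis), with blue circles for the sibling library and orange diamonds for the mutant library, 1 library each. The widest gaps are those of adam9, adamts8a and sparcl1, while sparc and tnc are the most abundant and differ little.

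Matricellular proteins, which modulate adhesion without building fibres, held the most abundant genes of the group. The collagen-binding protein sparc stood at 324 FPKM in siblings against 374 FPKM in mutants. Tenascin C, tnc, a protein of somite borders, neural crest paths and tendon, stood at 107 and 86.0 FPKM. Implied standard errors were 1.20 for sparc and 2.49 for tnc, above the median of 0.68 over the tested members, so these levels are poorly fixed. Together sparc and tnc made up 40.6% of the summed FPKM of all measured members in the sibling library and 38% in the mutant library. The relative of sparc, sparcl1, known in mammals as the synapse-organising protein hevin of astrocytes, stood at 5.53 and 1.65 FPKM. This was 3.35-fold lower, on chromosome 1 from 37241623 to 37268289 (Zv9). The authors' deposited table gives sparcl1 p = 0.00767 and q = 0.373, from a log2 change of -1.74 with an implied standard error of 0.65. The glial and progenitor markers gfap (135 and 36.5 FPKM) and fabp7a (674 and 253 FPKM) of the neural list also stood lower. They are among the 4 most lowered of the 11 measured genes of that list, on which gap43 and stmn2a lay slightly above 0. The part of glial and progenitor cells in the sparcl1 difference was not tested.

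Thrombospondins, the proteins of muscle attachment and other adhesive sites, were level. Levels of thbs4b, which acts at the myotendinous junction, were 7.91 and 6.23 FPKM, and those of thbs4a were 3.31 and 3.92 FPKM. Levels of thbs3a were 4.87 and 6.24 FPKM, those of thbs3b 5.02 and 4.27 FPKM and those of thbs2b 3.37 and 2.75 FPKM. In the thbs3 and the thbs4 pair, the a gene stood above its sibling level and the b gene below it. Each of these differences was under 0.31 in size. Both thbs2a loci lay under the limit.

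Fibrillins and fibulins, the microfibril proteins of fin folds, notochord and vessel walls, had 3 of 6 loci measured. Fibrillin fbn2b, needed for the fin fold and the notochord sheath, stood at 14.6 and 13.4 FPKM. Fibulin levels were 7.46 and 5.30 FPKM for fbln1 and 3.93 and 4.93 FPKM for fbln2. The fbn1 locus stood at 0 FPKM in siblings against 0.582 FPKM in mutants, and fbn2a and fbln5 lay under the limit.

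Partners of these genes were followed through 4 lists of related genes, none of which had a member called in the authors' deposited table. In the focal adhesion list, the proteins that tie integrins to actin, 27 loci were measured, with a median of -0.17. None was at least 2-fold higher, and 3 (11.1%, against 8.36% of all measured loci) were at least 2-fold lower. These 3 were an entry of ptk2.2, a focal adhesion kinase (30.7 and 11 FPKM), and the exchange factors arhgef7a (16.9 and 7.55 FPKM) and arhgef7b (17.1 and 7.51 FPKM). A second ptk2.2 entry at the same coordinates stood at 17.6 and 10.8 FPKM, so the division of its reads is uncertain, and the first entry has an implied standard error of 2.53. In the list of dystroglycan and its complex, the other laminin receptor of muscle, 22 genes were measured with a median of 0.08. Of these, 1 was at least 2-fold higher (4.55%, against 6.75% of all measured loci) and 0 were lower. The higher gene was sgca, the muscle sarcoglycan (10.5 and 25.8 FPKM). Next in size were fktn (7.14 and 13.9 FPKM), which acts on the sugar chains of dystroglycan, and sgcd (12.6 and 22.9 FPKM).

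In the list of basement membrane collagens and the Fraser complex, 19 genes were measured with a median of 0.06. At least 2-fold higher were 2 of them (10.5%, against 6.75% of all measured loci), and 0 were lower. The higher ones were the locus of col7a1l, a collagen of anchoring fibrils (12.5 and 78.4 FPKM), and frem3 of the Fraser complex (11 and 24.2 FPKM). The collagen col15a1b stood at 16.6 and 8.14 FPKM. The col7a1l locus carries 3 names that the table does not separate. Both higher estimates are weak, with implied standard errors of 7.39 for col7a1l and 2.68 for frem3. In the list of matrix crosslinking and protease regulators, 25 genes were measured with a median of 0.23. Values lay above 0 at 18 of them and below 0 at 7, where 50.1% of all measured loci lay above 0. Of the 25 genes, 0 were at least 2-fold higher and 1 was lower (4%, against 8.36% of all measured loci). The lower gene was the proprotein convertase furinb (3.93 and 1.38 FPKM), and plg, the precursor of plasmin, stood at 1.36 and 3.49 FPKM, beside the transglutaminase tgm2l at 1.73 and 4.02 FPKM.

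Marker lists of other tissues lay on both sides of 0, where 50.1% of all measured loci lay above it. All 12 epidermis markers lay above 0, with summed levels of 14827 and 21160 FPKM. Of 5 measured notochord markers 4 lay above 0, with sums of 102 and 142 FPKM, and matn1 of that list was at 0 in both libraries. Of 10 measured endothelium markers 8 lay below 0, with sums of 51.6 and 36.1 FPKM. Of 8 measured neural crest markers 6 lay below 0, with sums of 108 and 83.2 FPKM. The sum over the measured members was 1063 and 1211 FPKM, or 1.14 times. Most of that gap lay in fn1b (17.7 and 70.8 FPKM) and sparc (324 and 374 FPKM), while the members' median difference was 0.06. The muscle and epidermis ratios were 1.5 and 1.43, and the neural ratio was 0.459, which rests on the 4 genes named above. What part these tissues have in the member values was not tested.

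**Figure D5:**
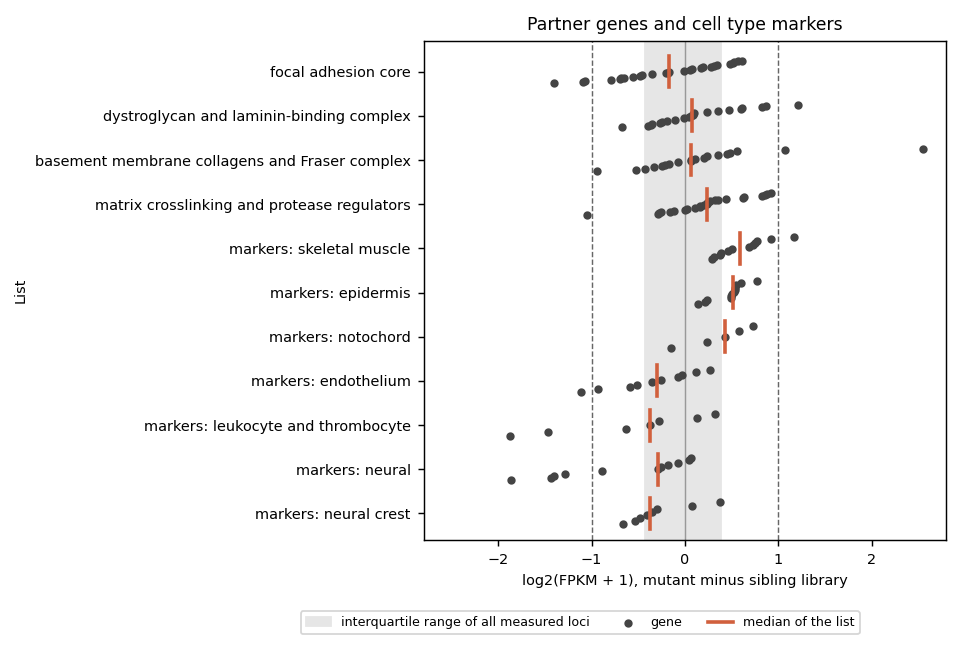
Difference of each measured gene in log2(FPKM + 1), mutant minus sibling library (horizontal axis), for the lists of partner genes and of cell type markers (vertical axis), with points for genes, orange lines for medians, a grey band for the interquartile range of all measured loci and dashed lines at 2-fold. The muscle and epidermis points all lie above 0, most neural points lie below 0, and the medians of the partner lists run from -0.17 to 0.23.

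By position, the loci were spread over 25 chromosomes, with adamts1 on an unplaced scaffold, and 9 pairs stood within 100000 bases of each other. The table lists 2 of these pairs at identical coordinates, for itgb1a and lamb1a. Of the rest, lamb1a and lamb4, lamb2 and lamb2l, itga1 and itga2, mmp13a and mmp30, and adamts8a and adamts15a are neighbours of one family.

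The deposited variant table, whose library is not given in the sources used here, lists 56 sites in 29 of these genes among 7563 sites in all. All 56 are entered as homozygous. The count of reads at these sites ran from 2 to 78 with a median of 7, and 16 sites had at least 10. The predicted effect was synonymous at 37 sites (66.1%, against 45.0% of all listed sites) and an amino acid change at 14 (25%, against 32.1%). Both fn1b and lamb4 carried 7 sites. All 7 in fn1b had at least 10 reads, the deepest 36, and 1 of them, at position 4410753 of chromosome 1 with 17 reads, changes the protein (E1098D, counted from the first residue). In lamb4 the change V433F had 13 reads. The only predicted frameshift was an insertion in adam17a, with 56 reads and a quality score of 10.4, where the scores of these 56 sites reached 225. Of the genes named as 2-fold different, itga7, sparcl1 and agrn had no listed site, which does not show them free of changes. The only site in adam9 was synonymous, with 4 reads. The 4 sites in adamts8a had at most 8 reads, and 1 of them changes the protein (A108G, with 3 reads).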

How the data were processed

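Gene levels are FPKM as the authors deposited them, 1 value per locus and library. Tools listed in the submitters' processing notes, with neither role nor option, are Cuffdiff, Cufflinks 2.2.1, TopHat2 2.1.1 and CASAVA 1.8, and the build listed is Zv9. Per the labels' protocols, libraries were poly-A selected and stranded, with paired reads of 50 bases. The deposited q-value and p-value of each locus come from the authors' comparison of these 2 libraries, not of genotypes. The p-value equalled the normal tail of the finite test statistic within 0.001 at 100% of tested loci, so a standard error was taken as the log2 change divided by its statistic. The variant table carries a quality score and a coverage (a count of reads) per site as deposited. Per the file headers, SnpEff 3.1k made its annotation.

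Symbols were matched with case as written. Counts leave out loci with a mean under 1 FPKM and those whose status was HIDATA or FAIL. Differences are log2(mutant + 1) minus log2(sibling + 1), counted at 2-fold. No p-value was computed. Other pseudocounts (0.1 and 5), limits on the mean (none and 5), scalings and choices of loci were tried. Named were members at least 2-fold different, the most abundant and most different of each role, and up to 3 genes per related list; the remaining members were added to account for all. Members and lists were chosen with earlier results of these data known. In RefSeq, 94 of the 100 symbols were found as symbols and 3 as synonyms. Python 3.11.15 and pandas 2.3.3 were used.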

Additional observations from a re-analysis of the deposited data

How the results depend on the processing

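The members' median of 0.06 ranged from -0.01 (equal sums) to 0.08 (only loci with 1 symbol that stands at 1 locus). The counts of 4 higher and 2 lower members are small and moved with the settings. Lower members numbered 4 with 0.1 FPKM added, 0 with 5 FPKM added, 0 with a mean of at least 5 FPKM and 1 with loci of 1 symbol, which drops the repeated name agrn. Higher members numbered 2 with 5 FPKM added, namely fn1b and adam9. Over all 20638 measured loci, the count of higher loci was 617 with 5 FPKM added, where 1393 was the value reported. With a mean of at least 5 FPKM it was 828 of 13116, beside 3 of 43 members. With loci of 1 symbol it was 687 of 16687, beside 4 of 73 members. Under both of those limits the members' share of higher loci lay above that of all loci, while in the reported setting it lay below. Lower loci were 2301 with 0.1 FPKM added, 796 with 5 FPKM added and 1089 with loci of 1 symbol, against 1725. Fewer loci were counted under the limit of 5 FPKM and under the rule of 1 symbol. Under the rule of 1 symbol the shares of higher and of lower loci also fell. The loci that this rule dropped, with repeated or joined names, were thus 2-fold different more often than those kept. Adding 5 FPKM shrinks the differences of low genes by construction. The 6 members named as 2-fold different could not change direction under these pseudocounts and scalings. A pseudocount cannot turn a sign, and the larger of the scalings shifted log2 levels by only -0.09. Among the 30 named members, the signs of adamtsl7 and timp2a, both near 0, turned under equal sums. No paired analysis was possible because each group has 1 library, and for the same reason no replicate could be left out. Depth limits the low members most, and its absolute value is unknown.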

Other observations

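The table also writes 46 loci of these families in capitals, such as a human name with a copy number, and these were outside the choice of symbols. Of 20 measured, 10 lay above 0 and 10 below, with a median difference of 0.01. By at least 2-fold, 1 was lower and 0 were higher, where 8.36% of all measured loci were lower and 6.75% higher. The lower gene was ADAMTS3, a protease that trims procollagens and activates a lymphatic growth factor, at 5.09 FPKM in siblings against 1.46 FPKM in mutants, a difference of -1.31. The authors' deposited table gives it q = 0.291 and does not call it. Next on the low side was ADAM22, a neuronal receptor without protease activity, at 12.4 and 6.18 FPKM.

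On the high side stood ITGB1BP2, the muscle protein melusin that binds the beta 1 tail, at 18.0 and 32.1 FPKM, and TIMP4 at 1.18 and 2.77 FPKM. Nidogen entries in capitals differed in both directions, NID2 (1 of 2) at 28.8 and 35.7 FPKM and NID1 (2 of 2) at 12.4 and 8.02 FPKM. The leukocyte chains ITGB2 (0.873 and 0.502 FPKM) and ITGAM (0.398 and 0.395 FPKM) lay under the limit of 1 FPKM.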
